A study of Mus musculus with 21 samples.

Results

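Dbp, Tef, Hlf, Nfil3, Bhlhe40, Bhlhe41 and Rora encode 7 transcription factors that carry the output of the circadian clock or form its accessory loops. They were taken by gene symbol from 28541 gene models measured by RNA sequencing in brown adipose tissue (BAT) and in white vastus lateralis (WV), a fast-twitch thigh muscle, of mice. Where several models carried a symbol, the one with the highest summed count was used. There were 8 models with one of the symbols, and the extra one was a short Tef model of 546 bases with 1191 counts over all libraries, against 219796 counts for the Tef model of 6272 bases that was used. All 7 genes passed the filter on low counts in both tissues.

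The circadian clock of mammalian cells is a loop in which BMAL1 (encoded by Arntl) and CLOCK switch on genes through E-boxes, including the Per and Cry genes whose proteins shut them off. Dbp, Tef and Hlf are the PAR bZIP factors, which the clock drives through E-boxes and which switch on target genes through D-boxes. Nfil3 (also called E4bp4) represses through the same D-boxes. Bhlhe40 and Bhlhe41 (Dec1 and Dec2) repress through E-boxes, and Rora activates Arntl through elements at which the repressors Nr1d1 and Nr1d2 compete. Transcripts of this kind swing over the day in adipose tissue and muscle, and the hour at which tissue was taken is not given in the sources used here.

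The series compared BATI4KO mice with floxed littermates. From what is known of the study, BATI4KO stands for loss of the transcription factor gene Irf4 in brown adipocytes through a Cre driven by the Ucp1 promoter, and the floxed controls carry the same floxed alleles without Cre; the labels give neither the driver nor the deleted exons, age or sex. There were 6 BAT libraries of BATI4KO mice, 5 BAT libraries of floxed mice, 5 WV libraries of BATI4KO mice and 5 WV libraries of floxed mice, each from whole tissue. The labels do not say that each library came from a separate animal, so p-values measure only the spread between these libraries. Titles of BAT libraries end either in a short number (3 of each genotype) or in a long tag (3 BATI4KO and 2 floxed), and all WV titles carry long tags. This title style is a labelled difference whose origin is not given, and it was a term in the BAT fit.

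Library totals were 20219479 to 41773148 counts, and counts of the 7 genes were 117 to 13572 per library. Irf4 was at 6.57 to 8.10 CPM (read counts relative to library size, scaled within the tissue) in BATI4KO BAT and at 23.9 to 59.8 CPM in floxed BAT, so every BAT library stood on the side of its label; it was at 2.21 to 2.97 CPM in BATI4KO WV and 2.50 to 4.95 CPM in floxed WV. Each tissue held its markers. Marker sums are CPM scaled over all 21 libraries together, not within the tissue, so they are not shares of a library. The summed level of 8 brown adipocyte markers was 4351 to 9279 CPM in BATI4KO BAT and 5937 to 13521 CPM in floxed BAT. It was 89.8 to 211 CPM over the WV libraries. The summed level of 16 skeletal muscle markers, on the same scale, was 300393 to 675897 CPM in WV. In BAT it was 659 to 18440 CPM in BATI4KO libraries and 195 to 1234 CPM in floxed libraries, with no marker at 0; the highest value belonged to the BATI4KO library BAT_KO_3 and the next highest was 2961 CPM.

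Promoters of these genes were searched for the letters that clock factors bind, because Bhlhe40, Bhlhe41, Rora and the PAR bZIP factors act on one another's loop through them. The RefSeq promoter table (build GRCm38.p6, 250 bases before to 50 after the start) held 7 promoters of 6 of the genes. Both strands were searched for the E-box CACGTG, the D-boxes TTACGTAA and TTATGTAA, and the ROR elements TAGGTCA and TGGGTCA; none of these overlapped another in the promoters printed here. Those with a match are shown, the match in capitals: the E-box of Bhlhe41 on the minus strand at chr6:145865371-145865670, the E-boxes of the 2 Tef promoters on the plus strand at chr15:81802423-81802722 and chr15:81811164-81811463, and the ROR element of Nfil3 on the minus strand at chr13:52980990-52981289, which reads TGACCTA as printed because it lies on the other strand.
Bhlhe41: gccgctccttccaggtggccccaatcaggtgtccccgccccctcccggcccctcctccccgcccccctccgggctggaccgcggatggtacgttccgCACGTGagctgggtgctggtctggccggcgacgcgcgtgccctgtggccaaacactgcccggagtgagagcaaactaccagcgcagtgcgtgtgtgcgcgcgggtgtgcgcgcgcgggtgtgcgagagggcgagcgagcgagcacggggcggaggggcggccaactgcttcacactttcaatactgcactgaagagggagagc
Tef, upstream start: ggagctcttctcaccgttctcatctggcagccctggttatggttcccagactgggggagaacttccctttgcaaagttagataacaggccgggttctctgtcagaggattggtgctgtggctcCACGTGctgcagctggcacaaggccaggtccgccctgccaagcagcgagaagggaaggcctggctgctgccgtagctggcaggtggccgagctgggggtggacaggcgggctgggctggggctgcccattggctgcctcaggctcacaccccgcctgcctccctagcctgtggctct
Tef, downstream start: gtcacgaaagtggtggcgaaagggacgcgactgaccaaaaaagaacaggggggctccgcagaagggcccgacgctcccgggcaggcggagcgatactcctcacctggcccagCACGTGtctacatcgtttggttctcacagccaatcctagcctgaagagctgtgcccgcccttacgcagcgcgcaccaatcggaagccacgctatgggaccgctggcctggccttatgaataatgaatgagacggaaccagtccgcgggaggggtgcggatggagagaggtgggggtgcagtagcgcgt
Nfil3: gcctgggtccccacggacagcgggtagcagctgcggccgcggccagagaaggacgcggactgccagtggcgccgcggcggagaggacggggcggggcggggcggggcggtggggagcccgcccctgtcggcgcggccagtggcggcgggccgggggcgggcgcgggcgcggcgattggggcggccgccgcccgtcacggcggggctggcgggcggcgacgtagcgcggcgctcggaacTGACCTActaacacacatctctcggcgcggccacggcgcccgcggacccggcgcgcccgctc
The E-box began 153 bases before the Bhlhe41 start and 127 and 138 bases before the upstream and downstream Tef starts, and the ROR element 12 bases before the Nfil3 start. CACGTG is in 7.15% of all 32851 promoters of that length, TAGGTCA in 2.61%, TGGGTCA in 3.98%, TTACGTAA in 0.119% and TTATGTAA in 0.938%. The windows of Dbp, Hlf and Rora held none of these letters.

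By mean level Tef was the most abundant of the 7 in every group and Dbp the next. In every group the libraries of Dbp overlapped those of the gene with the next mean. Levels below are CPM per kilobase of the gene model, scaled over all 21 libraries by the trimmed mean of M-values (TMM), so that genes and tissues can be set side by side. In BATI4KO BAT the order of the means was Tef at 38.5 ± 3.32, Dbp at 16.5 ± 1.52, Bhlhe40 at 14.2 ± 5.42, Nfil3 at 7.69 ± 2.30, Hlf at 6.69 ± 1.405, Bhlhe41 at 5.75 ± 0.611 and Rora at 3.73 ± 0.706 CPM per kilobase (SD, n = 6). Floxed BAT held Tef at 42.1 ± 3.10, Dbp at 12.5 ± 4.89, Hlf at 8.47 ± 4.03, Bhlhe40 at 8.37 ± 4.31, Nfil3 at 7.49 ± 1.44, Bhlhe41 at 4.68 ± 2.40 and Rora at 3.98 ± 0.726 CPM per kilobase (SD, n = 5). The genes from Hlf to Nfil3 in the floxed order lay within one another's spread. In bulk tissue, fewer cells of a type and less RNA per cell cannot be told apart.

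Muscle placed Hlf last in both genotypes. The gene after Dbp by mean was Bhlhe41 in BATI4KO WV and Rora in floxed WV. BATI4KO WV held Tef at 68.3 ± 9.65, Dbp at 40.0 ± 11.4, Bhlhe41 at 39.0 ± 9.70, Bhlhe40 at 35.4 ± 6.02, Rora at 30.8 ± 6.87, Nfil3 at 12.1 ± 2.34 and Hlf at 4.38 ± 1.64 CPM per kilobase (SD, n = 5). Floxed WV held Tef at 75.7 ± 6.29, Dbp at 38.0 ± 4.50, Rora at 30.5 ± 3.09, Bhlhe41 at 28.4 ± 9.36, Bhlhe40 at 20.4 ± 9.80, Nfil3 at 18.1 ± 4.30 and Hlf at 3.99 ± 1.18 CPM per kilobase (SD, n = 5). Within each tissue, the libraries of the 2 genotypes overlapped for every one of the 7 genes. The strand of the counts is not given in the sources used here, and by GENCODE annotation exons of Dbp overlap the protein-coding Sphk2 on the opposite strand and those of Tef, Bhlhe40, Bhlhe41 and Rora overlap non-coding genes, so reads of such pairs cannot be told apart; Hlf and Nfil3 have no such neighbour.

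**Figure D1:**
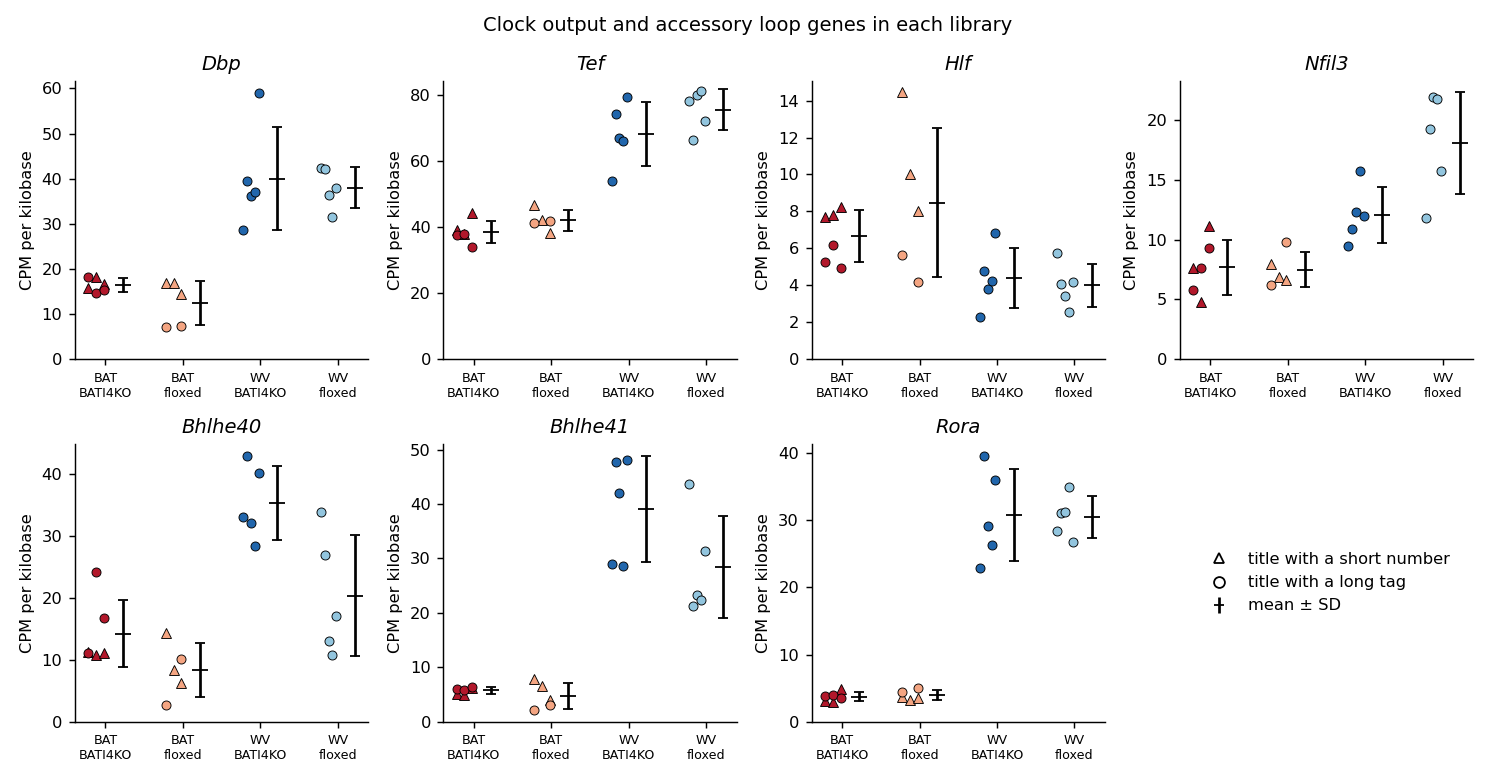
Level of each gene (CPM per kilobase, linear axis from 0) in every library of the 4 groups, with triangles for titles with a short number, circles for titles with a long tag and the mean ± SD beside them (n = 6 for BATI4KO BAT, 5 for each other group). Rora and Bhlhe41 lie far lower in BAT than in WV, and in floxed BAT 2 circles of Dbp lie at 7.18 and 7.27, below every other BAT library.

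The first comparison was BATI4KO against floxed BAT, the tissue in which Irf4 was lost. None of the 7 genes passed the test there, and the largest estimates were for Bhlhe40, Dbp and Bhlhe41. By edgeR's quasi-likelihood test with Benjamini-Hochberg adjustment, 0 of 7 genes passed at 0.05, against 0.0436% of all 16051 genes tested (7 genes). Without adjustment 1 of the 7, Dbp, was under 0.05, against 2366 of the 16051 genes. DESeq2 and limma voom called 0 of the 7, against 372 and 8 of all genes. For all 7 genes, BATI4KO and floxed libraries overlapped, while 0.928% of all genes did not overlap. The median log2 difference of the 7 genes was 0.03, beside -0.01 for all genes.

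Dbp, a clock output of high amplitude in many tissues, had the smallest p of the 7 genes and did not pass, over all BAT libraries or within either title style. BATI4KO libraries with short numbers held 15.7, 18.3 and 16.6 CPM per kilobase, and floxed libraries with short numbers 16.8, 16.8 and 14.4. Among long tags, BATI4KO libraries held 18.2, 14.6 and 15.4 CPM per kilobase, and floxed libraries 7.18 and 7.27. The 2 floxed libraries with long tags were the lowest, and the remaining BAT libraries were all at 14.4 or above. Among long tags alone, 31.8% of all genes did not overlap between the genotypes in one direction or the other. The log2 difference, BATI4KO over floxed, was 0.53 ± 0.18 (SE; edgeR adjusted p = 0.207, unadjusted p = 0.0102). It was 0.07 (adjusted p = 0.907) in short-number libraries alone and 1.16 (adjusted p = 0.057) in long-tag libraries alone. With the score of the muscle markers described above as a further covariate it was 0.54.

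Bhlhe41 and Bhlhe40, the E-box repressors, did not pass either, over all BAT libraries or within either title style. Bhlhe41 was at 5.02, 4.99 and 6.23 CPM per kilobase in BATI4KO libraries with short numbers and at 7.77, 6.54 and 3.996 in floxed ones. Long-tag BATI4KO libraries held 6.09, 5.76 and 6.39 CPM per kilobase, against 2.08 and 3.04 in long-tag floxed libraries. BATI4KO libraries thus stayed within 4.99 to 6.39 in both title styles, while floxed libraries spanned 2.08 to 7.77. The log2 difference of Bhlhe41 was 0.42 ± 0.26 (SE; edgeR adjusted p = 0.480), made up of -0.18 in short-number and 1.26 in long-tag libraries alone.

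Bhlhe40 held 11.3, 10.8 and 11.1 CPM per kilobase in BATI4KO libraries with short numbers and 14.3, 8.35 and 6.30 in floxed ones. With long tags it was at 11.2, 24.3 and 16.7 CPM per kilobase in BATI4KO libraries and at 2.74 and 10.1 in floxed libraries. The highest value, 24.3, and the lowest, 2.74, both came from long-tag libraries, while the other long-tag floxed value, 10.1, lay within the floxed short-number values. BATI4KO over floxed, the difference was 0.73 ± 0.36 on the log2 scale (SE; edgeR adjusted p = 0.381), and 0.19 and 1.45 in short-number and long-tag libraries alone. With the muscle score as a covariate it was 1.12 (adjusted p under every alternative 0.227 to 0.847).

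The other 4 genes differed less. Hlf was at 4.96 to 8.23 CPM per kilobase (median 6.93) in BATI4KO libraries, against 14.5, 10.04, 8.05, 5.63 and 4.16 in floxed libraries, a log2 difference of -0.19 ± 0.16 (SE; edgeR adjusted p = 0.605). For Tef the difference was -0.13 ± 0.08, for Nfil3 0.03 ± 0.20 and for Rora -0.11 ± 0.14 (SE; edgeR adjusted p 0.485, 0.966 and 0.731). Each of these estimates lay within 2 SE of 0. All 4 had their highest BATI4KO value in the library BAT_KO_3, the one with the most muscle RNA. There Hlf was at 8.23, Tef at 44.2, Nfil3 at 11.1 and Rora at 4.86 CPM per kilobase. With the muscle score as a covariate Nfil3 was at -0.21 and Rora at -0.33. The part of muscle RNA in these values was not tested. Among long tags, Dbp, Bhlhe40 and Bhlhe41 were higher and Tef and Rora lower in every BATI4KO library than in both floxed ones, against the 31.8% of all genes given above; among short numbers 0 of the 7 genes and 13.6% of all genes did not overlap.

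**Figure D2:**
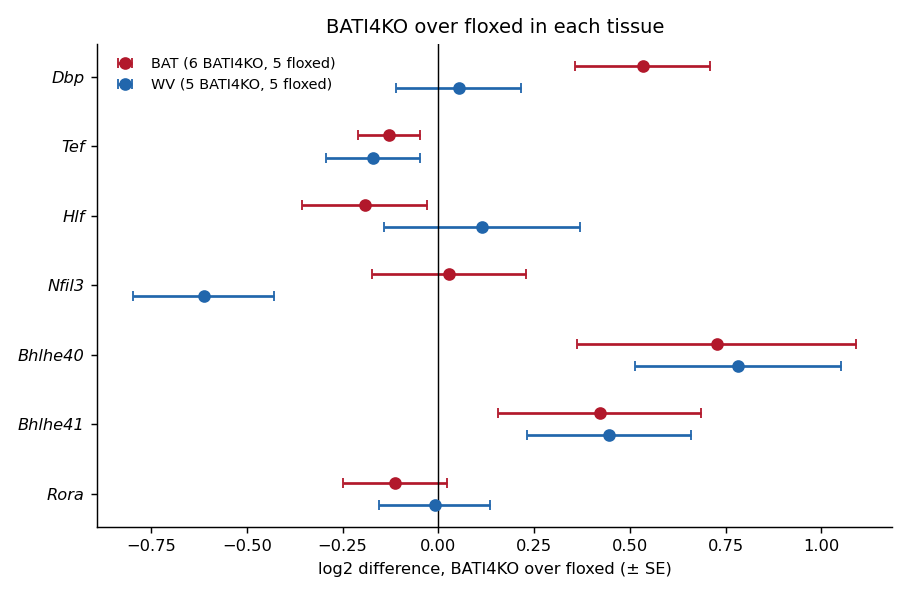
Log2 difference, BATI4KO over floxed, with its SE for each gene in BAT (red, 6 and 5 libraries) and in WV (blue, 5 and 5 libraries), from edgeR fits within each tissue. Bhlhe40 is at 0.73 in BAT and 0.78 in WV, Nfil3 at 0.03 and -0.61, and no gene passed the test in either tissue.

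Genes of the loop around these factors gave no call in BAT either. Of 16 further clock genes 0 passed by edgeR or limma voom. Without adjustment 8 were under 0.05, against 2366 of all 16051 genes. DESeq2 called 3, all lower, against 372 of all genes. Of the 16 estimates 13 were negative, with a median log2 difference of -0.23 beside -0.01 for all genes. The smallest p-values were those of Cry1 and Cry2, the repressors of CLOCK and BMAL1. Cry1 was at 3.09 ± 0.764 CPM per kilobase in BATI4KO BAT (SD, n = 6) and at 5.25 ± 0.780 in floxed BAT (SD, n = 5), a log2 difference of -0.77 ± 0.17 (SE; edgeR adjusted p = 0.143). Cry2 was at 4.67 ± 0.838 and 6.34 ± 0.977 CPM per kilobase in BATI4KO and floxed BAT, a difference of -0.42 ± 0.11 (SE; edgeR adjusted p = 0.176). Neither passed.

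Known PAR bZIP targets and other rhythmic genes were likewise not called by edgeR or limma voom. The counts below stand beside 2366 of all 16051 genes under 0.05 without adjustment and 372 called by DESeq2. Of 7 tested PAR bZIP targets, which include genes of drug metabolism, 0 passed by any of the 3 tools and 1 was under 0.05 without adjustment (median log2 difference -0.07). The smallest p-values were those of Cyp2b10, a cytochrome P450 (-1.79 ± 0.70, SE; edgeR adjusted p = 0.265), and Pdxk, pyridoxal kinase (-0.21 ± 0.11, SE; edgeR adjusted p = 0.373). Of 8 rhythmic output genes 0 passed by edgeR, 2 were under 0.05 without adjustment and DESeq2 called 1, with a median of -0.27; Lonrf3 was at -1.16 ± 0.20 and Nampt, an enzyme of NAD synthesis, at -0.49 ± 0.15 (SE; edgeR adjusted p 0.106 and 0.196). Of 6 glucocorticoid-responsive genes 0 passed by edgeR, 1 was under 0.05 without adjustment and DESeq2 called 1 (median -0.41); Pdk4, which restrains glucose oxidation, was at -0.54 ± 0.16 and Klf9 at -0.25 ± 0.16 (SE; edgeR adjusted p 0.193 and 0.485).

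By title style, Hlf and Dbp were higher in BAT libraries with short numbers than in those with long tags, and the other 5 genes did not pass. Hlf passed in each genotype alone and Dbp in floxed libraries alone. In the same BAT fit, edgeR called 2 of the 7 genes, both higher, against 31.3% of all 16051 genes called in either direction and 14.9% called higher. As calls in either direction, 2 of 7 is no more than the background. It is above the share called higher, but rests on 2 genes, so it is no result about these genes as a group. All 8 brown adipocyte markers also passed, 7 lower and 1 higher in short-number libraries, with Elovl3 at -2.85, Cidea at -1.03, Ucp1 at -1.004 and Cox8b at 0.63 on the log2 scale. Their summed level, scaled over all 21 libraries, was 4351 to 5170 CPM in BATI4KO and 5937 to 6718 CPM in floxed libraries with short numbers. With long tags it was 8198 to 9279 CPM in BATI4KO and 9505 to 13521 CPM in floxed libraries. The part of this shift in the levels of Hlf and Dbp was not tested. DESeq2 and limma voom called the same number. Because titles carry no date or place, what the styles stand for cannot be told from the labels.

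Hlf was at 7.67, 7.81 and 8.23 CPM per kilobase in BATI4KO and 14.5, 10.04 and 8.05 in floxed libraries with short numbers. With long tags it was at 5.27, 6.20 and 4.96 CPM per kilobase in BATI4KO and 5.63 and 4.16 in floxed libraries. Every short-number library was above every long-tag library, as for 6.5% of all genes in that direction. The log2 difference, short number over long tag, was 0.83 ± 0.17 (SE; edgeR adjusted p = 0.00302). In BATI4KO libraries alone it was 0.57 (adjusted p = 0.0114) and in floxed libraries alone 1.18 (adjusted p = 0.0433).

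Dbp gave 0.56 ± 0.18 (SE; edgeR adjusted p = 0.0305), but in BATI4KO libraries alone the difference was 0.11 (adjusted p = 0.542) and in floxed libraries alone 1.19 (adjusted p = 0.0155). Its call was lost without the floxed library BAT_FX_1 (adjusted p = 0.0513), BAT_FX_2 (0.0537), BAT_FX_5497 (0.0969) or BAT_FX_5503 (0.123). Bhlhe41 was at 0.46 (edgeR adjusted p = 0.208), Tef at 0.12, Nfil3 at -0.02, Bhlhe40 at -0.10 and Rora at -0.22, none of which passed. Without the BATI4KO library BAT_KO_3, Rora was at -0.34 and passed (adjusted p = 0.0221).

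Whether the genotype difference itself depended on title style was tested by an interaction term, a test chosen after these values were seen. For Dbp the genotype difference was larger by 1.07 ± 0.17 on the log2 scale among long tags than among short numbers (SE; edgeR adjusted p = 0.221, unadjusted p = 5.68e-05), which placed it at rank 2 of 16051 genes by p. For Bhlhe41 the term was 1.42 ± 0.34 (SE; edgeR adjusted p = 0.561, unadjusted p = 0.00144, rank 40) and for Bhlhe40 1.23 ± 0.64 (adjusted p = 0.676). By edgeR and limma voom 0 of the 7 genes passed, against 0.00623% of all genes (1 gene). Without adjustment 2 of the 7 were under 0.05, against 1249 of the 16051 genes. DESeq2 called both of these, with adjusted p = 0.000277 for Dbp and 0.0382 for Bhlhe41, and 35 of all genes. The call thus depends on the tool, and the long-tag floxed side of the contrast holds 2 libraries.

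**Figure D3:**
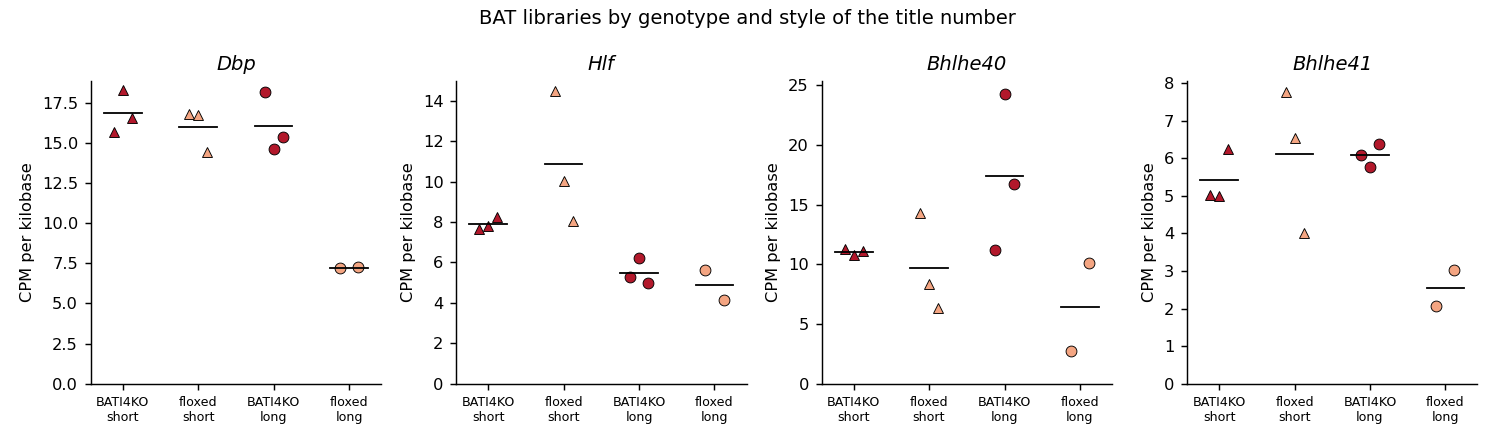
Level (CPM per kilobase, linear axis from 0) of Dbp, Hlf, Bhlhe40 and Bhlhe41 in each BAT library, split by genotype and title style, with a line at the mean of each set (n = 3, 3, 3 and 2 libraries from left to right). Dbp is low in the 2 floxed libraries with long tags alone. Bhlhe41 is lowest in those 2, and the floxed short-number library BAT_FX_3 is next at 3.996. Hlf is lower in the long-tag libraries of both genotypes.

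Of the 16 further clock genes, 4 were higher and 1 lower in short-number libraries, a share no higher than the 31.3% of all genes called in either direction. The share called higher is above the 14.9% of all genes called higher, but rests on 4 genes. DESeq2 called 5 higher and 1 lower. The median log2 difference of the 16 genes was 0.22 beside 0.03 for all genes. Nr1d1, the repressor that competes with Rora, was at 50.004, 32.2 and 51.3 CPM per kilobase in BATI4KO and 37.2, 38.9 and 31.4 in floxed libraries with short numbers. With long tags it was at 20.1, 22.3 and 28.2 CPM per kilobase in BATI4KO and 9.60 and 17.5 in floxed libraries. As with Hlf, no library of one style reached the range of the other. Nr1d1 was higher by 1.15 ± 0.18 on the log2 scale, Per1 by 0.75 ± 0.19 and Per2 by 0.48 ± 0.14, and Clock was at -0.43 ± 0.12 (SE; edgeR adjusted p 0.000762, 0.00984, 0.0188 and 0.0163). Of 7 PAR bZIP targets Por, the electron donor of cytochromes P450, was lower (-0.39 ± 0.08, SE; edgeR adjusted p = 0.00258) and the others did not pass. Of 8 rhythmic output genes edgeR called 0, with 4 under 0.05 without adjustment, DESeq2 called 3 and limma voom 1; the smallest p-values were those of Nampt at -0.40 and Usp2 at 0.61 (edgeR adjusted p 0.063 and 0.0643). Of 6 glucocorticoid-responsive genes 0 passed by any of the 3 tools and 1 was under 0.05 without adjustment, with Zbtb16 at 0.88 and Sgk1 at -0.27 (edgeR adjusted p 0.0844 and 0.357). Over all 16051 genes, 6835 were under 0.05 without adjustment, and DESeq2 and limma voom called 5470 and 5135.

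In WV, a tissue of mice whose brown fat had lost Irf4, none of the 7 genes passed either. Nfil3 had the smallest p and was estimated lower in BATI4KO muscle, and Bhlhe40, the next, higher. By edgeR 0 of 7 genes passed, against 0.00688% of all 14529 genes (1 gene). Without adjustment 2 of the 7 were under 0.05, against 1295 of the 14529 genes. DESeq2 and limma voom called 0 of the 7, against 111 and 1 of all genes. Every one of the 7 genes overlapped between genotypes, while 1.19% of all genes did not.

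Nfil3, the D-box repressor, was at 9.44, 10.9, 12.3, 15.7 and 11.9 CPM per kilobase in BATI4KO WV, against 11.8, 19.2, 21.9, 21.7 and 15.7 in floxed WV. All but 1 of the BATI4KO libraries lay below all but 1 of the floxed libraries. The log2 difference was -0.61 ± 0.18 (SE; edgeR adjusted p = 0.401, unadjusted p = 0.00569). Bhlhe40 was at 33.1, 42.9, 32.2, 28.5 and 40.3 CPM per kilobase in BATI4KO WV, against 33.9, 27.0, 13.0, 10.8 and 17.1 in floxed WV. Here 1 floxed library, WV_FX_5413, reached the BATI4KO range. The log2 difference of Bhlhe40 was 0.78 ± 0.27 (SE; edgeR adjusted p = 0.441, unadjusted p = 0.0128).

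Bhlhe41 was at 28.9, 47.7, 41.9, 28.6 and 48.0 CPM per kilobase in BATI4KO WV and 43.6, 21.3, 23.3, 22.4 and 31.4 in floxed WV, a log2 difference of 0.45 ± 0.21 (SE; edgeR adjusted p = 0.582). The PAR bZIP factors and Rora were closer to 0, with Tef at -0.17 ± 0.12, Hlf at 0.11 ± 0.26, Dbp at 0.05 ± 0.16 and Rora at -0.01 ± 0.15 (SE; none passed). Their libraries overlapped widely: Dbp, for example, was at 28.6, 39.4, 36.1, 36.9 and 59.1 CPM per kilobase in BATI4KO WV and 42.3, 42.1, 36.3, 31.4 and 37.9 in floxed WV.

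Of the 16 further clock genes in WV, 0 passed by edgeR or limma voom, 6 were under 0.05 without adjustment and DESeq2 called 2, both higher (median log2 difference 0.04, all genes -0.01). Over all 14529 genes, 1295 were under 0.05 without adjustment and DESeq2 called 111. Nr1d1 was at 24.4 to 36.9 CPM per kilobase in BATI4KO WV and 8.67 to 19.01 in floxed WV, without overlap, a difference of 1.18 ± 0.21 on the log2 scale (SE; edgeR adjusted p = 0.128). Clock was at 0.48 ± 0.09 (SE; edgeR adjusted p = 0.175). Neither passed. Of 8 rhythmic output genes edgeR and limma voom called 0, with 4 under 0.05 without adjustment, and DESeq2 called 2 (median 0.01); Lonrf3 was at -1.28 ± 0.20 and Pfkfb3, a regulator of glycolysis, at 1.96 ± 0.49 (SE; edgeR adjusted p 0.0824 and 0.335). Of 6 PAR bZIP targets and 6 glucocorticoid-responsive genes 0 passed by any of the 3 tools, with 1 and 2 under 0.05 without adjustment and medians of -0.26 and -0.41; the smallest p-values were those of Por at -0.25 and Pdxk at -0.27, and of Fkbp5 at -1.22 and Zbtb16 at -0.42.

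Whether the genotype difference was the same in both tissues was asked by testing their difference in 1 joint fit of the 21 libraries. By edgeR 0 of 7 genes passed, against 0.018% of 16632 genes (3 genes). Without adjustment 1 of the 7, Nfil3, was under 0.05, against 1766 of the 16632 genes. DESeq2 and limma voom called 0 of the 7, against 55 and 2 of all genes. The genotype difference of Nfil3 in BAT minus that in WV was 0.62 ± 0.29 on the log2 scale (SE; edgeR adjusted p = 0.456), and that of Dbp 0.46 ± 0.26 (adjusted p = 0.543). The other 5 estimates lay between -0.32 (Hlf) and 0.03 (Tef), with errors of 0.49 for Bhlhe40 and 0.37 for Bhlhe41 (SE), so a difference between tissues was not detected at this precision. Of the 16 further clock genes edgeR called 0 (5 under 0.05 without adjustment; DESeq2 called 2), with a median of -0.23 beside 0.02 for all genes; Clock was at -0.86 ± 0.16 and Cry1 at -0.99 ± 0.23 (SE; edgeR adjusted p 0.0834 and 0.244). Of 8 PAR bZIP targets, 8 rhythmic output and 6 glucocorticoid-responsive genes all 3 tools called 0, with 0, 3 and 0 under 0.05 without adjustment; the smallest p-values were those of Nr1i3 (-0.71) and Cyp7a1 (0.83), Pfkfb3 (-1.92) and Coq10b (-0.80), and Klf9 (-0.25) and Fkbp5 (0.41).

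The tissues themselves differed most. All but Hlf of the 7 genes were lower in BAT than in WV in both genotypes, with Rora and Bhlhe41 the furthest apart. In BATI4KO mice edgeR called 6 of 7 genes, all lower in BAT, against 70.5% of 16632 genes called and 33.1% called lower; in floxed mice it called the same 6, against 65.8% called and 31.7% called lower. The median log2 difference of the 7 genes was -1.27 in BATI4KO and -1.25 in floxed mice, beside 0.14 and 0.11 for all genes. The fit holds a title style term shared by both genotypes, and all WV titles carry long tags. The contrasts are thus adjusted to the long-tag style by that shared term. They are not the differences of the long-tag BAT libraries alone. For Dbp the log2 difference, short number over long tag, was 0.11 in BATI4KO and 1.19 in floxed BAT libraries fitted alone.

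Rora, the activator of Arntl, was at 2.93 to 4.86 CPM per kilobase (median 3.73) in BATI4KO BAT and at 22.9, 39.5, 29.2, 26.2 and 36.0 in BATI4KO WV. In floxed mice it was at 3.64, 3.27, 3.57, 4.36 and 5.06 CPM per kilobase in BAT and 28.4, 31.0, 31.3, 34.9 and 26.7 in WV. No BAT library came near the WV range. The log2 difference, BAT over WV, was -2.92 ± 0.17 in BATI4KO and -2.80 ± 0.18 in floxed mice (SE; edgeR adjusted p = 2.58e-12 and 1.42e-11). Bhlhe41 was at -2.95 ± 0.29 and -2.91 ± 0.34 in BATI4KO and floxed mice (SE; edgeR adjusted p = 7.79e-09 and 1.52e-07), with its highest BAT level, 7.77 CPM per kilobase, below its lowest WV level, 21.3.

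Dbp and Tef were also lower in BAT without overlap in either genotype. Dbp was at -1.53 ± 0.20 in BATI4KO and -1.99 ± 0.23 in floxed mice, and Tef at -0.88 ± 0.12 and -0.90 ± 0.13 (SE; edgeR adjusted p between 1.62e-07 and 4.25e-06). Tef, for example, was at 34.0 to 44.2 CPM per kilobase (median 38.0) in BATI4KO BAT and at 54.0, 74.4, 67.2, 66.3 and 79.5 in BATI4KO WV. Bhlhe40 was at -1.27 ± 0.37 and -1.20 ± 0.44, and Nfil3 at -0.63 ± 0.23 and -1.25 ± 0.24, in BATI4KO and floxed mice (SE; edgeR adjusted p = 0.00442, 0.0207, 0.0175 and 0.000123 in that order). Bhlhe40 overlapped between the tissues in floxed mice and Nfil3 in BATI4KO mice. Of the 7 genes, 5 did not overlap in each genotype, all lower in BAT, against 27.6% of all genes in BATI4KO and 25.7% in floxed mice.

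Hlf, the third PAR bZIP factor, stood on the other side. It was at 4.96 to 8.23 CPM per kilobase (median 6.93) in BATI4KO BAT and 2.28, 4.77, 3.805, 4.25 and 6.81 in BATI4KO WV, and at 14.5, 10.04, 8.05, 5.63 and 4.16 in floxed BAT and 5.77, 4.05, 3.398, 2.57 and 4.17 in floxed WV. The estimates were positive but did not pass, at 0.19 ± 0.25 in BATI4KO and 0.51 ± 0.28 in floxed mice (SE; edgeR adjusted p = 0.493 and 0.109). Without title style as a term the floxed difference was 1.09 and passed (edgeR adjusted p = 0.00238), while that in BATI4KO mice did not. A tag is found in both tissues 4 times, and in these pairs Hlf was higher in BAT in 4 of 4 while each of the other 6 genes was lower in BAT in 4 of 4. This was not counted over all genes, so the pairs only describe these 7. In a fit of these libraries with the tag as a block, Hlf passed in BATI4KO and floxed mice (edgeR adjusted p = 0.0116 and 0.0327). Nfil3 and Bhlhe40 did not pass in BATI4KO mice in that fit.

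How libraries are scaled bears on these tissue differences, and why it does was not tested. With library totals in place of TMM, the median of all genes moved by 0.95 in BATI4KO and 0.68 in floxed mice, and the share of called genes that were higher in BAT was 83.2% and 78.2%, against 53.0% and 51.8% by TMM. Of the 7 genes, 3 (Dbp, Bhlhe41 and Rora) were then called lower and 1 (Hlf) higher in each genotype. Over all 16632 genes, 2288 and 2647 were called lower and 11365 and 9474 higher in BATI4KO and floxed mice. Tef changed sign to 0.0922 in BATI4KO mice and was -0.21 in floxed mice, and Nfil3 changed sign to 0.34 in BATI4KO mice and was -0.59 in floxed mice, none of which passed. With upper-quartile scaling 5 of the 7 were called in BATI4KO mice, all lower, and in floxed mice 6 lower and Hlf higher. That scaling called 12024 and 11112 of all genes, 4747 of them lower in each genotype. The lower levels of Rora, Bhlhe41 and Dbp in BAT passed under every scaling, filter and test tried.

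Without the floxed library BAT_FX_5497 or WV_FX_5413, Bhlhe40 no longer passed in floxed mice (-0.70 and -0.93, edgeR adjusted p = 0.127 and 0.061). Without the BATI4KO library BAT_KO_5414 or WV_KO_5495, Nfil3 no longer passed in BATI4KO mice (-0.50 and -0.51, edgeR adjusted p = 0.0724 and 0.0537). Without the floxed library BAT_FX_5503 or WV_FX_5413, Hlf passed as higher in floxed BAT (0.71 and 0.68, edgeR adjusted p = 0.0499 and 0.0353).

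**Figure D4:**
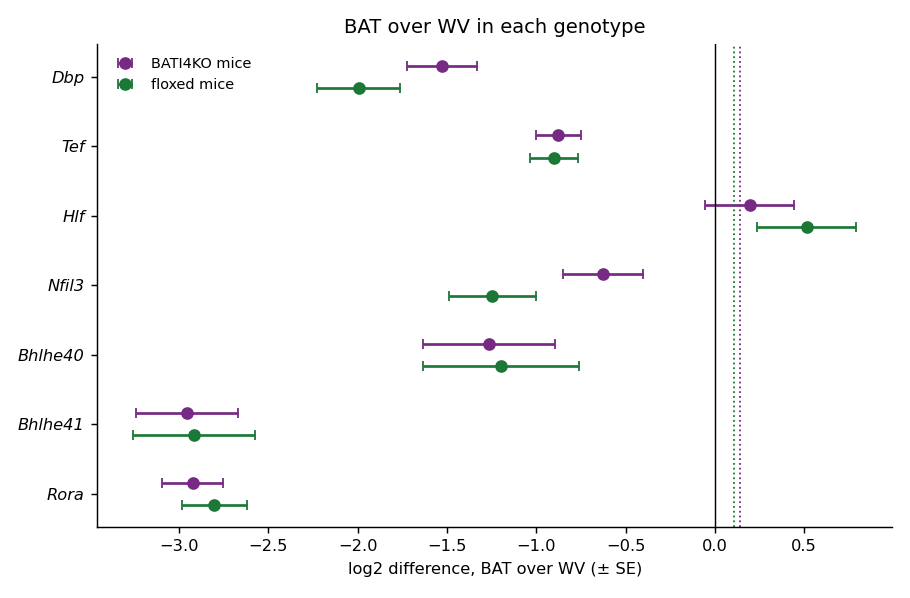
Log2 difference, BAT over WV, with its SE for each gene in BATI4KO mice (purple) and floxed mice (green), from 1 edgeR fit over 21 libraries with title style as a term. Dotted lines mark the medians of all genes, 0.14 and 0.11; Rora and Bhlhe41 lie near -2.9 in both genotypes and Hlf alone lies above 0.

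Loop partners and targets of these factors did not share 1 direction between the tissues. Of 16 further clock genes 3 were higher and 8 lower in BAT of BATI4KO mice (median log2 difference -0.69), and 2 higher and 4 lower in floxed mice (median -0.14), where 70.5% and 65.8% of all genes were called in BATI4KO and floxed mice. Counted in either direction, neither was above that background. Called lower were 33.1% and 31.7% of all genes. The 8 of 16 in BATI4KO mice are a larger share than that, and the 4 of 16 in floxed mice are not. The medians of all genes were 0.14 and 0.11. Nr1d2, the paralog of Nr1d1, was at -1.41 ± 0.13 in BATI4KO and -1.19 ± 0.14 in floxed mice, and Csnk1e, a kinase of PER proteins, at -1.19 ± 0.13 and -1.21 ± 0.14 (SE; all passed by edgeR). Of 8 PAR bZIP targets 4 were higher and 2 lower in BAT in each genotype. Some lay near the floor: Cyp2b10 had at most 1 count in a WV library and Cyp7a1 at most 21 in any library. Whether the targets follow Dbp and Tef between tissues was not tested. Por was at 101 ± 15.0 CPM per kilobase in BATI4KO BAT (SD, n = 6) and 8.53 ± 0.957 in BATI4KO WV (SD, n = 5), a log2 difference of 3.76 ± 0.11, and Pdxk was at 1.61 ± 0.13 (SE; both passed by edgeR). Of 8 rhythmic output genes 2 were higher and 4 lower in BATI4KO mice and 4 higher and 4 lower in floxed mice; Usp2, a ubiquitin protease, was at -2.81 ± 0.27 and -2.53 ± 0.27. Of 6 glucocorticoid-responsive genes 0 were higher and 3 were lower in BATI4KO mice, and 0 and 2 in floxed mice, with Tsc22d3 at -2.40 ± 0.25 and -2.49 ± 0.26 (SE).

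Libraries of one tissue also differed among themselves, so all 21 pairs of the 7 genes were correlated across libraries in each tissue, on log2 CPM, which gave 42 relations. In WV, Dbp and Hlf moved together from library to library, with Pearson r = 0.905 (n = 10; permutation p = 0.00044, adjusted over the 42 relations 0.0185) and Spearman rho = 0.806 (permutation p = 0.00696, adjusted 0.0974). Without the 2 libraries farthest from the median of Dbp, r was 0.807, and after subtracting the mean of each genotype it was 0.906. In this pair a high Dbp library was a high Hlf library in both genotypes. It was the only relation of the 42 whose Pearson p passed after adjustment; its rho did not. With library totals in place of TMM its r was 0.750 (adjusted permutation p = 0.102) and it no longer passed, while 3 others did: Dbp with Bhlhe41 (r = 0.909) and Tef with Hlf (r = 0.819) in BAT, and Tef with Nfil3 (r = 0.854) in WV (adjusted permutation p = 0.0437 for each).

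Nfil3 and Bhlhe40 ran opposite to each other in WV, with r = -0.849 (permutation p = 0.00249, adjusted 0.0523) and rho = -0.842 (permutation p = 0.00382, adjusted 0.0804), which did not pass. Without the 2 libraries farthest from the median of Nfil3, r was -0.642, and after subtracting the genotype means -0.705. In BAT, Dbp and Bhlhe41 gave r = 0.883 (n = 11; permutation p = 0.00385, adjusted 0.0539) and rho = 0.609. Without the 2 libraries farthest from the median of Dbp r was 0.298, and in the 6 short-number libraries 0.438, so that relation rests on the 2 floxed libraries with long tags.

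**Figure D5:**
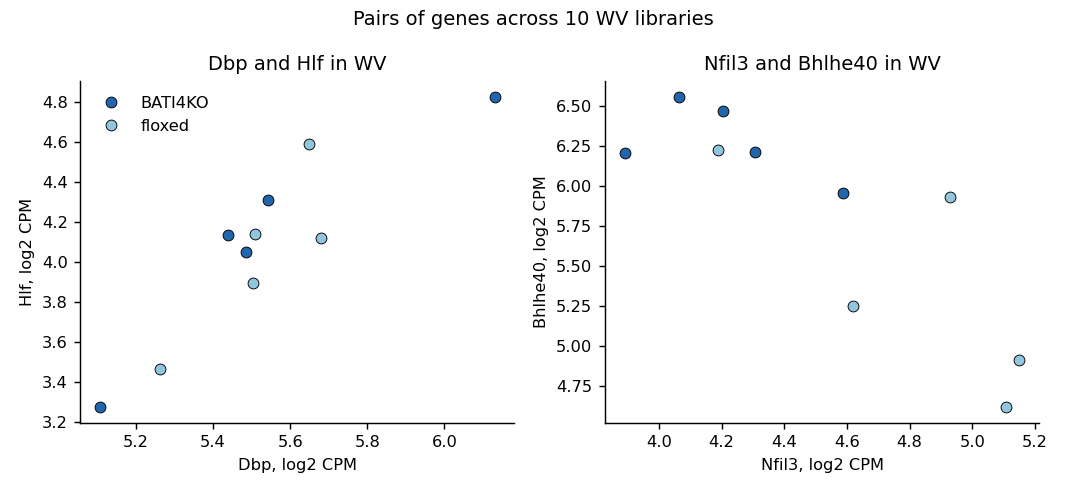
Log2 CPM (log scale) of Hlf against Dbp, and of Bhlhe40 against Nfil3, in the 10 WV libraries, dark for BATI4KO and light for floxed. The points of Dbp and Hlf climb together (r = 0.905) and those of Nfil3 and Bhlhe40 run the opposite way (r = -0.849).

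Genes with the most similar library-to-library pattern were looked up over all 21 libraries, after subtracting the mean of each group and title style, among 11664 genes. The highest Pearson r with Dbp was 0.846 (Gng12), with Tef 0.919 (Cc2d1b), with Hlf 0.891 (Ncdn), with Nfil3 0.853 (Ucn), with Bhlhe40 0.859 (Nfyc), with Bhlhe41 0.892 (Gapdh) and with Rora 0.918 (Phka1). The next were Atxn7l3b and Scamp1 for Dbp, Thoc5 and Map2k6 for Tef, Syvn1 and Dnajc16 for Hlf, Cdk5rap1 and Plekhf1 for Nfil3, Rnf185 and Unc5b for Bhlhe40, Zhx2 and Slc6a6 for Bhlhe41, and Rasd2 and Bin1 for Rora, with r of 0.750 to 0.915. None of the 7 genes was among the 3 nearest of another. These are descriptions across libraries that share depth and tissue composition.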

How the data were processed

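RNA of whole BAT and WV was depleted of ribosomal RNA and tagmented into libraries, per the labels' protocols. The deposited values are the authors' raw read counts per gene model, with its length, per the file headers. Build mm9 and, besides edgeR, the tools featureCounts 1.4.6, SAMtools 0.1.19, Picard 2.2.4, TopHat2 2.0.14 and bcl2fastq 2.17.1.14 are named in the submitters' processing notes; how duplicates and strand were handled is not given in the sources used here. Reads had no molecular identifiers.

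Here the quasi-likelihood F test of edgeR 4.0.16 (R 4.3.3) was run on TMM-scaled counts after its default expression filter, Benjamini-Hochberg adjusted over all genes, with a threshold of 0.05. BAT was fitted with title style as a covariate, WV without, and tissues in 1 fit of 4 groups and title style. Correlations used log2 CPM (prior count 2) and 100000 two-sided permutations (SciPy 1.17.1). Alternatives were DESeq2 1.42.0, limma voom 3.58.1, other scalings, filters and covariates, blocks and left-out libraries. The steps were tested on simulated data. Changes of 1.5-fold were recovered in 29% of cases for BAT genotype, 19.1% for WV genotype and 3.75% for genotype by tissue. At 2-fold it was 74.2%, 54.4% and 35.2%, and at 4-fold 90.8%, 93.8% and 84.8%. A gene that did not pass may thus still differ by the smaller of these amounts. Annotation was GENCODE M21, by symbol.

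The 7 genes and all lists were chosen with earlier results of these data known. List members named were, by rule, up to 4 passing with the smallest p, otherwise the 2 smallest p. For likeness, the 3 highest r were taken among named genes with a mean of at least 1 CPM. Replicates differed beyond sampling noise (smallest chi-square per gene 32.9). Deviations of same-numbered libraries correlated at only -0.121 to 0.134, and numbers were not treated as pairs in the main fits. These correlations cannot tell whether a shared tag marks 1 animal. Fits with a replicate block are given below.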

Additional observations from a re-analysis of the deposited data

How the results depend on the processing

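For the 7 genes, calls in BAT, in WV and between tissues' genotype effects stayed at 0 under every scaling, filter, test, covariate and left-out library tried, while estimates that did not pass changed sign under some of them, among them Bhlhe41 in BAT (-0.18 in short-number libraries). Leaving out each library in turn gave 1 to 3 calls for title style, 5 to 6 for BAT over WV in BATI4KO mice, 5 to 7 in floxed mice and 0 to 0 elsewhere. Over all genes, the first 3 of these called 3435 to 5306, 11122 to 11950 and 10118 to 11048 in that order. Title style gave 1 call in BATI4KO libraries alone, against 2. The genotype by title style term gave 2 calls by DESeq2, against 0. The correlations gave 3 past the threshold with library totals, none of them that of Dbp and Hlf in WV, and 0 without the 2 farthest libraries, against 1. With library totals, Tef and Nfil3 changed sign in BATI4KO mice, to 0.0922 and 0.341.

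Same-numbered libraries were compared: deviations of short numbers 1, 2 and 3 correlated at 0.134, -0.121 and 0.0672 between genotypes, where 1 of 3 BATI4KO libraries correlated best with its own number, and the 4 shared tags at -0.0840 to 0.113 between tissues, with 2 of 4. The 2 floxed tags are not separate checks, because 2 libraries deviate from their own mean in mirror image. With the replicate block, 0 of the 7 genes were called for genotype in short-number BAT libraries and 0 for the interaction. For BAT over WV the block fit called 5 of the 7 in BATI4KO and 7 in floxed mice, against 9244 and 9425 of all 16622 genes. Hlf then passed in both (0.91 and 0.70), and Nfil3 and Bhlhe40 did not in BATI4KO mice (-0.36 and -0.70).

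The count over all genes is less stable than that of the 7. BAT genotype, 7 in the fit reported, gave 3 with upper-quartile scaling or a 1 CPM filter, 372 by DESeq2, 1 without the covariate or with the muscle score, 0 in short-number libraries or with the block, and 1 to 16 with a library left out. WV genotype, 1 as reported, gave 0 with upper-quartile scaling, totals or a 1 CPM filter, 5 with no filter, 111 by DESeq2 and 0 to 11 with a library left out. The interaction of tissue, 3 as reported, gave 55 by DESeq2, 20 in long-tag libraries, 0 with the block and up to 30 with a library left out. Title style, 5031 as reported, gave 3028 in BATI4KO and 656 in floxed libraries alone, and 62.0% and 66.3% of its calls were higher with upper-quartile scaling and totals, against 47.6%. Its interaction with genotype, 1 as reported, gave 35 by DESeq2. Under library totals the median of all genes also moved by 0.14 for BAT genotype, -0.11 for WV genotype, 0.26 for their difference and 0.11 for title style. The causes were not tested.

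Values within long-tag BAT libraries rest on 3 BATI4KO and 2 floxed libraries.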
